A study of Homo sapiens with 24 samples.

Results

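The genes described here encode amino acid transporters of the plasma membrane or their subunits: SLC7A11, SLC3A2, SLC7A5, SLC7A1, SLC1A4, SLC1A5, SLC38A1, SLC38A2, SLC6A9 and SLC43A1. They were taken by gene symbol and are 10 of the 22227 genes in the tables of a ligand experiment and 10 of the 23028 genes in those of an siRNA experiment. All 10 passed the filters on low values, which left 15555 and 20369 genes to be tested. LNCaP, a human prostate adenocarcinoma line, was profiled by sequencing of polyadenylated RNA. In the ligand experiment the cells received vehicle, 10 µM enzalutamide for 4 or 24 h, or 10 nM dihydrotestosterone (DHT) for 4 or 24 h. In the siRNA experiment they were transfected with non-targeting siRNA (siControl) or a pool of 4 siRNAs against GATA2 (siGATA2), and 72 h later were given 25 µM enzalutamide, or vehicle alone, for another 24 h. Every group had been kept in phenol red-free medium with charcoal-stripped serum, which is depleted of steroids, for 3 days before the ligand was added. Enzalutamide is an antiandrogen, the antagonist in what follows, DHT is a natural androgen, the agonist, and GATA2 is a transcription factor.

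The comparisons ask how the antagonist and the agonist change each transporter, and whether the change under enzalutamide differs when GATA2 is depleted. There were 2 replicates per ligand group, as counted here, and 3 per siRNA group. The labels list 4 vehicle samples in the ligand experiment, and which of its 4 vehicle columns belongs to which sample cannot be told. They call all of these biological replicates without saying whether they were separate cultures, so p-values measure the spread between these libraries, which may in part be technical. A single cell line, a single siRNA pool and a vehicle group with no stated time limit what the groups can stand for. The 10 µM and 25 µM doses belong to different experiments and are given side by side with no comparison. Library totals in the ligand experiment were, in estimated counts, 59985287 and 38894876 (vehicle), 42131436 and 49283955 (4 h enzalutamide), 49986088 and 49029465 (24 h enzalutamide), 53145781 and 53779493 (4 h DHT), and 56454994 and 40281721 (24 h DHT). The first vehicle library is the sum of 3 columns that share a replicate number. Those columns differed from each other by a mean chi-square of 1.51 to 1.54 per gene, where pure counting noise gives about 1, and from the remaining vehicle column by 3.42 to 3.59, so they were counted as 1 replicate. The siRNA tables hold RPKM, and the steps between their low values correspond to roughly 59000000 to 77000000 mapped reads per library.

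Amino acids cross the plasma membrane through carriers that differ in substrate, in coupling to sodium and in whether they exchange one amino acid for another. The heavy chain SLC3A2 (4F2hc, CD98) carries light chains such as SLC7A11 (xCT), which imports cystine in exchange for glutamate, and SLC7A5 (LAT1), which imports large neutral amino acids such as leucine. Several of these genes are known targets of ATF4, the transcription factor of the amino acid response, and prostate cancer cells are known to use LAT1, LAT3 (SLC43A1) and ASCT2 (SLC1A5) to take up leucine and glutamine.

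The libraries carried transcripts typical of the line. In siControl cells with vehicle the luminal prostate genes KLK3 and TMPRSS2 stood at 791 and 63.1 RPKM. Markers of basal, stromal, immune, endothelial and neuroendocrine cells, 15 in all, summed to 14.6 to 15.9 RPKM in siControl with vehicle, 18.1 to 18.7 in siControl with enzalutamide, 25 to 29.8 in siGATA2 with vehicle and 26.2 to 28.3 in siGATA2 with enzalutamide. COL1A1 was the most abundant of them at 10.1 RPKM in siControl with vehicle, CD68 stood at 3.73 RPKM, and KRT5, COL1A2, CD3E and CHGA were listed at 0 there. TMPRSS2 averaged 46.5 RPKM in siControl with enzalutamide and 21.8 and 21.6 RPKM in siGATA2 with vehicle and enzalutamide. Luminal genes did not move as one: with siGATA2 in vehicle KLK3 and TMPRSS2 fell, while KRT8, KRT18, STEAP2 and FOLH1 rose by 0.84, 0.56, 0.53 and 0.43 on the log2 scale. The sum for other cells was higher with siGATA2 and, in siControl cells, with enzalutamide, with no overlap. With siGATA2 in vehicle 3 of these markers rose, CD68 (1.598), COL1A1 (0.54) and VWF (0.35), and KRT14 fell (-0.68), so the sum does not stand for all 5 cell types. With enzalutamide in siControl cells CD68 (0.39) and COL1A1 (0.30) rose, while VWF (-0.96) and KRT14 (-0.75) fell. In the ligand experiment VWF fell with enzalutamide (-0.31 at 4 h and -0.87 at 24 h), and with DHT at 24 h CD68 (0.97), KRT14 (3.49) and VWF (0.40) rose and COL1A1 (-0.65) fell. The part of these changes in the results on the transporters was not tested.

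The targeted gene GATA2 was at 83.8, 77.0 and 86.1 RPKM in siControl with vehicle and at 129, 132 and 128 RPKM in siControl with enzalutamide. It was at 54.3, 53.4 and 46.6 RPKM in siGATA2 with vehicle and at 60.1, 64.7 and 61.5 RPKM in siGATA2 with enzalutamide. No siGATA2 library exceeded 64.7 RPKM and no siControl library was under 77.0 RPKM, 6 libraries of each (two-sided exact permutation test, p = 0.0022). The ratio of the means was 0.537, so a large part of the GATA2 RNA remained. The 4 siRNAs are shown, 5′ to 3′ and all in lower case, because every siGATA2 value below rests on them. Each has 19 bases, matched 3 or 4 of 6 annotated GATA2 transcripts, and matched 0 of the 88 annotated transcripts of the 10 transporter genes on either strand.
siRNA 1: ucgaggagcugucaaagug
siRNA 2: acuacaagcugcacaaugu
siRNA 3: gaagagccggcaccuguug
siRNA 4: gcccaggccuagcuacuau

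The ligands acted on androgen-responsive genes. With vehicle, KLK3, which encodes prostate-specific antigen, stood at 257 ± 4.24 CPM (SD, n = 2), against 2117 ± 31.1 CPM with DHT at 24 h and 110 ± 2.05 CPM with enzalutamide at 24 h. CPM here is the count scaled to library size by the trimmed mean of M values, and was not divided by transcript length. In the siRNA experiment KLK3 was at 791 ± 25.1 RPKM (SD, n = 3) in siControl with vehicle, 286 ± 26.2 in siControl with enzalutamide, 24.1 ± 2.29 in siGATA2 with vehicle and 18.5 ± 0.764 in siGATA2 with enzalutamide. TMPRSS2 averaged 75.1 CPM in vehicle and 381 CPM after 24 h of DHT, a log2 fold change of 2.34, and FKBP5 90.6 and 346 CPM, a change of 1.93 (edgeR, adjusted p = 3.32e-13 and 6.54e-13). In the ligand experiment GATA2 itself was at 223 and 237 CPM in vehicle, 184 and 167 CPM after 4 h of enzalutamide, 201 and 203 CPM after 24 h, 184 and 186 CPM after 4 h of DHT and 178 and 187 CPM after 24 h.

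Per length, the transporters covered a wide range of levels in the siRNA experiment. The order takes RPKM at face value and holds for that experiment only. The levels of SLC7A5 and SLC43A1 differed between the experiments, as given below. In siControl cells with vehicle the order of mean RPKM (± SD, n = 3) was SLC7A1 53.3 ± 1.16, SLC38A2 52.5 ± 1.44, SLC3A2 47.4 ± 1.78, SLC7A5 42.9 ± 1.74, SLC1A5 40.2 ± 1.84, SLC43A1 36.8 ± 1.29, SLC38A1 29.2 ± 1.74, SLC7A11 15.4 ± 1.19, SLC6A9 6.29 ± 0.521 and SLC1A4 2.21 ± 0.195. Among neighbours in that order, the libraries of SLC7A1 and SLC38A2 overlapped, as did those of SLC7A5 and SLC1A5, and the other neighbours did not overlap. Of the genes tested, 94.4% had a lower mean than SLC7A1, 78.6% a lower mean than SLC7A11 and 47.9% a lower mean than SLC1A4. In siGATA2 cells with vehicle the order was SLC38A2 58.4 ± 4.39, SLC3A2 32.9 ± 0.255, SLC1A5 22.9 ± 1.2, SLC38A1 21.0 ± 1.85, SLC7A5 17.4 ± 0.492, SLC7A1 16.7 ± 0.282, SLC43A1 13.4 ± 0.122, SLC7A11 6.75 ± 0.329, SLC6A9 2.70 ± 0.0927 and SLC1A4 0.504 ± 0.0326. Here the libraries of SLC1A5 and SLC38A1 overlapped, as did those of SLC7A5 and SLC7A1, so these places hold by the means alone.

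Enzalutamide at 10 µM raised nearly the whole group of transporters, and did so within 4 h. At 4 h, 9 of 10 rose and 0 fell, against 6.94% of all genes tested that rose and 6.68% that fell (edgeR quasi-likelihood test, Benjamini-Hochberg adjusted p below 0.05, the threshold for every call). At 24 h, 10 of 10 rose and 0 fell, against 16.4% and 17% of all genes. The 10 were chosen with earlier results of these data known. Their shares, here and below, describe these genes and not amino acid transporters at large. The median log2 fold change of the 10 was 0.55 at 4 h and 0.64 at 24 h, beside 0.0015 and 0.015 over all genes. At an unadjusted p below 0.05 the counts were again 9 and 10 higher and 0 lower, and DESeq2 gave the same counts. In bulk RNA, a change in every cell and a change in the share of cells that carry the transcript cannot be told apart. All ligand comparisons with vehicle share the same vehicle libraries.

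**Figure D1:**
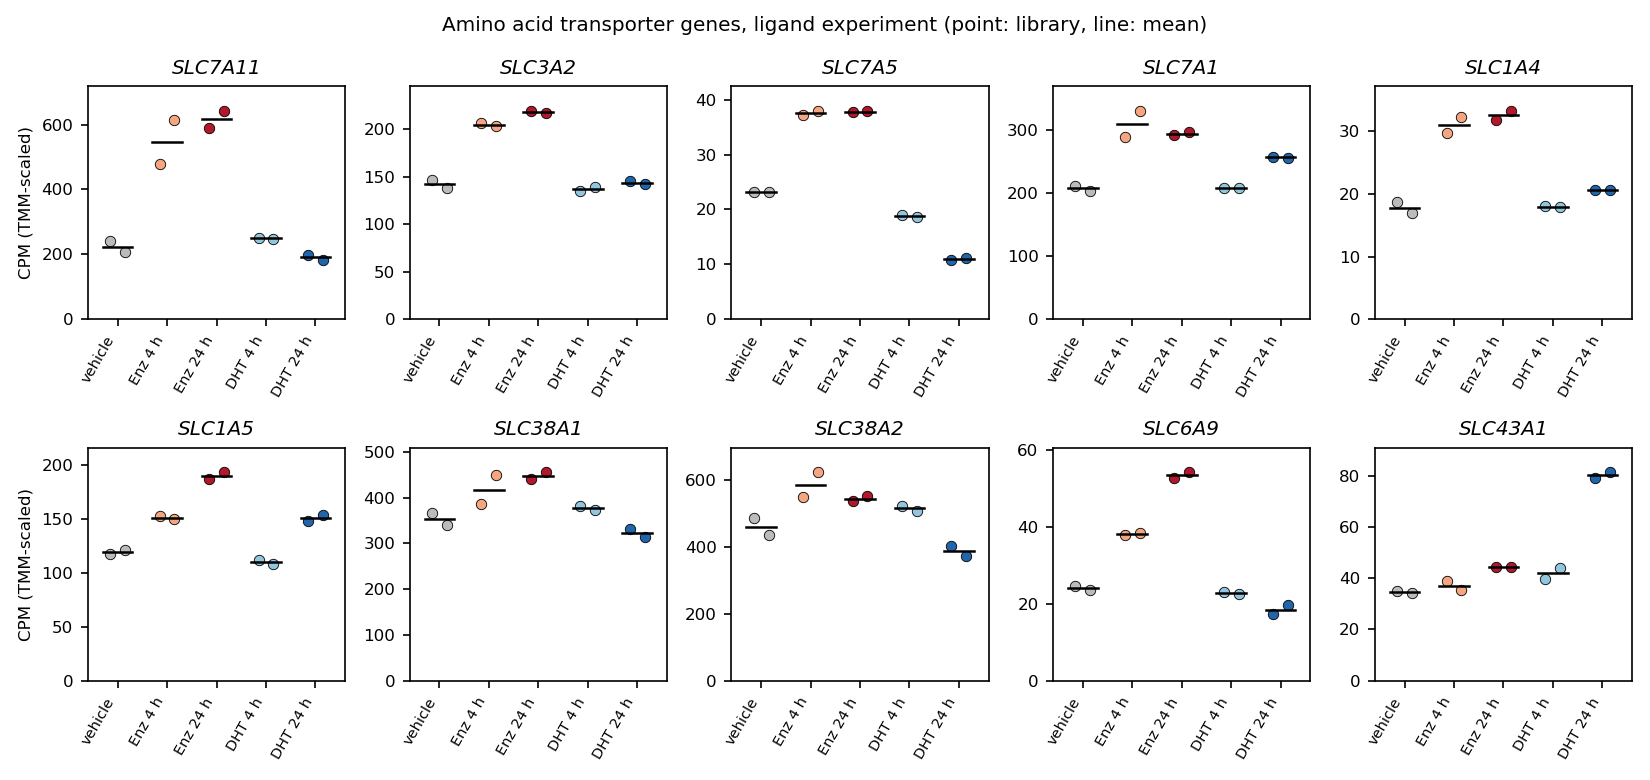
Level of each transporter gene in the ligand experiment: each point is 1 library, each line a group mean, and the y axis is CPM scaled by the trimmed mean of M values from 0. SLC7A11 lies at 478 to 642 CPM in the 4 enzalutamide libraries and at 184 to 252 CPM in the other 6, and SLC43A1 is highest after 24 h of DHT, at 79.0 and 81.2 CPM.

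SLC7A11 (chr4:138164097-138242349, minus strand; GENCODE coordinates on GRCh38 here and for the genes that follow) had the largest change under enzalutamide among the 10. It was at 241 and 206 CPM in the 2 vehicle libraries, at 478 and 615 CPM after 4 h of enzalutamide, and at 591 and 642 CPM after 24 h. After DHT it was at 252 and 246 CPM at 4 h and at 197 and 184 CPM at 24 h. Every enzalutamide library was thus well above every other library, while those of DHT lay close to vehicle. The log2 fold change was 1.29 ± 0.096 (SE) at 4 h and 1.46 ± 0.096 at 24 h (edgeR, adjusted p = 3.14e-06 and 8.21e-08). For DHT it was 0.15 at 4 h and -0.23 at 24 h (edgeR, adjusted p = 0.433 and 0.0578), neither past the threshold. With no filter on low counts both were called (0.16 and -0.24). The 24 h value was also called with all vehicle columns as separate libraries (-0.29), without vehicle replicate 2 (-0.34) and without either enzalutamide 4 h replicate (-0.23 each), while without vehicle replicate 1 it was -0.12. Over the settings its adjusted p ran from 7.7e-09 to 0.443, and that at 4 h from 0.00147 to 0.91. The DHT libraries at 24 h nevertheless lay below those at 4 h, a difference of -0.39 (edgeR, adjusted p = 0.00438).

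SLC3A2 (chr11:62856102-62888875, plus strand), the heavy chain that brings the light chains to the cell surface, was at 147 and 138 CPM in vehicle, 207 and 203 CPM after 4 h of enzalutamide, and 219 and 217 CPM after 24 h. With DHT it was at 135 and 139 CPM at 4 h and at 145 and 142 CPM at 24 h. All 4 enzalutamide libraries were above all 6 others, and the DHT libraries overlapped vehicle. The log2 fold change with enzalutamide was 0.52 ± 0.037 at 4 h and 0.61 ± 0.037 at 24 h (edgeR, adjusted p = 2.5e-06 and 3.71e-08).

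SLC7A5 (chr16:87830023-87869488, minus strand), the leucine-carrying light chain, moved in opposite directions with the antagonist and the agonist. It was at 23.1 and 23.1 CPM in vehicle, 37.2 and 37.9 CPM after 4 h of enzalutamide, and 37.7 and 38.0 CPM after 24 h. With DHT it was at 19.03 and 18.6 CPM at 4 h and at 10.8 and 11.2 CPM at 24 h. No library of any of these groups overlapped vehicle, and the lowest values of the gene were those after 24 h of DHT. Enzalutamide changed SLC7A5 by 0.70 ± 0.048 at 4 h and 0.71 ± 0.048 at 24 h on the log2 scale, and DHT by -0.30 ± 0.05 and -1.08 ± 0.054 (edgeR, adjusted p = 1.59e-06, 1e-07, 0.00192 and 4.8e-09). The near copy SLC7A5P2 had 10 to 37 counts per library.

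SLC7A1 (chr13:29509410-29595688, minus strand) encodes CAT1, the carrier of the cationic amino acids arginine and lysine. It was at 212 and 203 CPM in vehicle, 289 and 330 CPM after 4 h of enzalutamide, and 292 and 296 CPM after 24 h. With DHT it was at 208 and 208 CPM at 4 h and at 257 and 256 CPM at 24 h. The 4 h DHT libraries lay within the vehicle range, and all others were above it. The log2 fold change was 0.58 ± 0.05 and 0.50 ± 0.05 with enzalutamide at 4 and 24 h, and 0.31 ± 0.05 with DHT at 24 h (edgeR, adjusted p = 1.2e-05, 5.25e-06 and 0.000202).

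SLC1A4 (chr2:64988477-65023865, plus strand) and SLC1A5 (chr19:46774883-46788594, minus strand) encode ASCT1 and ASCT2, sodium-dependent exchangers of small neutral amino acids, ASCT2 also of glutamine. SLC1A4 was at 18.8 and 16.9 CPM in vehicle, 29.8 and 32.3 CPM after 4 h of enzalutamide, 31.9 and 33.3 CPM after 24 h, 18.1 and 17.9 CPM after 4 h of DHT and 20.6 and 20.6 CPM after 24 h. SLC1A5 was at 118 and 121 CPM in vehicle, 153 and 150 CPM after 4 h of enzalutamide, 187 and 193 CPM after 24 h, 112 and 109 CPM after 4 h of DHT and 148 and 154 CPM after 24 h. SLC1A4 was thus highest with enzalutamide, and SLC1A5 with enzalutamide at 24 h. The 4 h enzalutamide libraries of SLC1A5 overlapped those of DHT at 24 h. At 24 h both genes were above vehicle with DHT as well. With enzalutamide the log2 fold changes were 0.79 ± 0.063 and 0.86 ± 0.062 for SLC1A4 and 0.34 ± 0.038 and 0.67 ± 0.037 for SLC1A5 at 4 and 24 h (edgeR, adjusted p = 5.14e-06, 2.18e-07, 7.93e-05 and 1.57e-08). With DHT at 24 h SLC1A5 rose by 0.34 ± 0.038 (edgeR, adjusted p = 6.81e-06). SLC1A4 rose by 0.20 ± 0.065 (edgeR, adjusted p = 0.0197), a call that ended without vehicle replicate 2 (0.14), without DHT 24 h replicate 1 (0.20) or without its replicate 2 (0.20), with adjusted p from 0.00814 to 0.139 over all settings tried.

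SLC38A1 (chr12:46183063-46270017, minus strand) and SLC38A2 (chr12:46358189-46372867, minus strand), neighbours on the chromosome, encode the sodium-coupled glutamine and alanine carriers SNAT1 and SNAT2. SLC38A1 was at 366 and 341 CPM in vehicle, 386 and 449 CPM after 4 h of enzalutamide, 441 and 455 CPM after 24 h, 382 and 373 CPM after 4 h of DHT and 331 and 314 CPM after 24 h. SLC38A2 was at 485 and 433 CPM in vehicle, 546 and 621 CPM after 4 h of enzalutamide, 535 and 550 CPM after 24 h, 522 and 507 CPM after 4 h of DHT and 402 and 372 CPM after 24 h. In both genes the enzalutamide libraries and the 4 h DHT libraries were above vehicle and the 24 h DHT libraries below it. SLC38A1 changed by 0.24 ± 0.058 and 0.34 ± 0.058 with enzalutamide at 4 and 24 h (edgeR, adjusted p = 0.0164 and 0.000595). The 4 h call ended without vehicle replicate 2 (0.19) or without enzalutamide 4 h replicate 2 (0.12), with adjusted p from 4.35e-08 to 0.145 over the settings. SLC38A2 changed by 0.35 ± 0.061 and 0.24 ± 0.061 (edgeR, adjusted p = 0.00284 and 0.00886), and its 24 h call ended without vehicle replicate 2 (0.15) or without enzalutamide 24 h replicate 2 (0.21), with adjusted p from 6.57e-09 to 0.134. With DHT at 24 h SLC38A2 changed by -0.25 ± 0.061 (edgeR, adjusted p = 0.00422), a call that ended without vehicle replicate 1 (-0.16) or DHT 24 h replicate 2 (-0.20), with adjusted p from 5.27e-11 to 0.0735.

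SLC6A9 (chr1:43991500-44031467, minus strand) encodes GLYT1, the sodium- and chloride-dependent glycine carrier. It was at 24.5 and 23.6 CPM in vehicle, 37.8 and 38.5 CPM after 4 h of enzalutamide, and 52.5 and 54.1 CPM after 24 h. With DHT it was at 23.0 and 22.4 CPM at 4 h and at 17.4 and 19.6 CPM at 24 h. The libraries thus stood in steps, upward with time in enzalutamide and downward with time in DHT, with no overlap between any of the 5 groups. The log2 fold change was 0.66 ± 0.057 and 1.15 ± 0.055 with enzalutamide at 4 and 24 h and -0.39 ± 0.06 with DHT at 24 h (edgeR, adjusted p = 1.08e-05, 3.89e-09 and 0.00013). Exons of SLC6A9 overlap those of CCDC24 on the opposite strand, which reached 730 counts and 14.4 RPKM, and although the library kit was a directional one, the strand setting of the counting is not given in the sources used here, so the share of these reads in the counts of SLC6A9 cannot be told.

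SLC43A1 (chr11:57484534-57515786, minus strand), which encodes the sodium-independent leucine carrier LAT3, was the exception among the 10, with its highest level under the agonist. It was at 34.9 and 34.3 CPM in vehicle, 38.7 and 35.3 CPM after 4 h of enzalutamide, and 44.2 and 44.3 CPM after 24 h. With DHT it was at 39.8 and 43.8 CPM at 4 h and at 79.0 and 81.2 CPM at 24 h. The DHT 24 h libraries were far above all 8 others. SLC43A1 changed by 1.21 ± 0.056 with DHT at 24 h and by 0.35 ± 0.057 with enzalutamide at 24 h (edgeR, adjusted p = 1.94e-09 and 0.000381), and the value for enzalutamide at 4 h, 0.09, did not pass the threshold (edgeR, adjusted p = 0.324). Its change of 0.27 ± 0.057 with DHT at 4 h (edgeR, adjusted p = 0.00911) was no longer called without vehicle replicate 1 (0.29), vehicle replicate 2 (0.26) or DHT 4 h replicate 2 (0.20), with adjusted p from 6.3e-05 to 0.157 over the settings.

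DHT divided the transporters. At 4 h, 1 of 10 rose (SLC43A1) and 1 fell (SLC7A5), against 4.66% and 2.11% of all genes; the count of risers was 0 without vehicle replicate 1, vehicle replicate 2 or DHT 4 h replicate 2, and 2 without either enzalutamide 4 h replicate. At 24 h, 4 of 10 rose (SLC7A1, SLC1A4, SLC1A5 and SLC43A1) and 3 fell (SLC7A5, SLC38A2 and SLC6A9), against 26.9% and 23.2% of all genes, so the shares were not far from those of all genes. Without either enzalutamide 4 h replicate the number that fell was 5. The median log2 fold change of the 10 was 0.0055 at 4 h and -0.060 at 24 h, beside -0.0085 and 0.0014 over all genes. The 2 leucine carriers thus went opposite ways with 24 h of DHT, SLC7A5 to 0.474 and SLC43A1 to 2.31 times its vehicle level.

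Between 4 and 24 h, fewer transporters were called with enzalutamide than with DHT, as were fewer of all genes. The difference between the ligands was not tested. From 4 to 24 h of enzalutamide 3 of 10 rose further and 0 fell (11.7% and 12.9% of all genes, edgeR), and the count at an unadjusted p below 0.05 was 4 higher and 0 lower, with DESeq2 also giving 3 and 0. These were SLC1A5, SLC6A9 and SLC43A1, with log2 differences of 0.33, 0.48 and 0.26; without enzalutamide 4 h replicate 2 there were 5 risers, and without its replicate 1 there were 2 that fell. From 4 to 24 h of DHT 4 rose and 5 fell (26.3% and 23.5% of all genes), led by SLC43A1 at 0.94 and SLC7A5 at -0.78. The rise of SLC1A4 between these times, 0.20, was not called by DESeq2 or without any of the 4 DHT libraries in turn (adjusted p from 0.013 to 0.105), and the fall of SLC38A1, -0.23, was not called without DHT 24 h replicate 2 (-0.20; adjusted p from 5.81e-09 to 0.0513).

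With the ligands set directly against each other at 4 h, 7 of 10 genes were called higher with enzalutamide than with DHT and 0 lower. Of all genes, 7.28% were called higher and 8.49% lower (edgeR). At an unadjusted p below 0.05 there were 9 higher and 1 lower, and DESeq2 called 7 and 1, the latter SLC43A1. In edgeR the difference of SLC43A1, -0.18, just missed the threshold (adjusted p = 0.0513), and it was called without enzalutamide 4 h replicate 1 or DHT 4 h replicate 1. At 24 h, 9 of 10 were higher with enzalutamide and 1 lower, against 33.6% and 31.3% of all genes, the widest gaps being those of SLC7A5 at 1.79, SLC7A11 at 1.70 and SLC6A9 at 1.54, and the single negative value that of SLC43A1 at -0.86.

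The names of the deposited ligand columns carry 3 prefixes whose meaning is not stated. Both enzalutamide 4 h libraries have one prefix and both 24 h libraries another, and a vehicle run exists for each. Against the vehicle run of the same prefix, 9 of the 10 genes were higher and 0 lower in both enzalutamide 4 h libraries, where 39.6% of all genes tested were higher in both and 35% lower in both. In the 24 h enzalutamide libraries 10 were higher and 0 lower, where 46.3% and 40.9% of all genes were. With DHT 4 were higher and 6 lower in both 4 h libraries (40.6% and 41.3% of all genes), and 4 were higher and 5 lower in both 24 h libraries (42.6% and 38.4%). For SLC7A11 these within-prefix log2 ratios were 0.98 and 1.35 at 4 h and 1.31 and 1.43 at 24 h of enzalutamide. Only the vehicle column numbered 1 of each prefix was used here, so no test was made of these values. The prefix of the DHT 4 h libraries holds a further vehicle column, vehicle replicate 2, and the counts of 4 and 6 rest on the other column alone. Between treated groups the prefix coincides with the group for enzalutamide against DHT at 4 h and for 24 against 4 h of enzalutamide, and the DHT libraries of 4 and 24 h share no prefix. In these contrasts the effect of treatment or time and that of the prefix cannot be told apart.

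In the siRNA experiment enzalutamide, at 25 µM for 24 h, again raised most of the transporters in siControl cells, and in siGATA2 cells it moved none of them past the threshold. In siControl cells 8 of 10 rose and 0 fell, against 17.7% and 24.4% of all genes (limma on log2(RPKM + 0.1), Benjamini-Hochberg adjusted). At an unadjusted p below 0.05 the counts were also 8 and 0. No count test was run on these RPKM values. In siGATA2 cells 0 rose and 0 fell, against 0.221% and 0.191% of all genes (limma); 3 were higher and 0 lower at an unadjusted p below 0.05. Those 3 were SLC7A11, SLC7A5 and SLC1A5. In siGATA2 cells the enzalutamide libraries of 5 of the 10 genes (SLC7A11, SLC3A2, SLC7A5, SLC1A5 and SLC6A9) all lay above those with vehicle, 0 lay below and 5 overlapped, where 6.3% of all genes tested lay above and 9.99% below. With replicate number as a block over all siRNA libraries, calls over all genes in siGATA2 cells went from 45 up and 39 down to 14 and 15. Those of the 10 stayed at 0 and 0. Same-numbered siGATA2 libraries with vehicle and enzalutamide had correlations of -0.204, 0.203 and 0.28, so pairing was not established for this contrast. The median log2 fold change of the 10 was 1.03 in siControl cells and 0.084 in siGATA2 cells, beside -0.023 and -0.010 over all genes. The contrasts within this experiment share their groups and are not independent of each other.

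**Figure D2:**
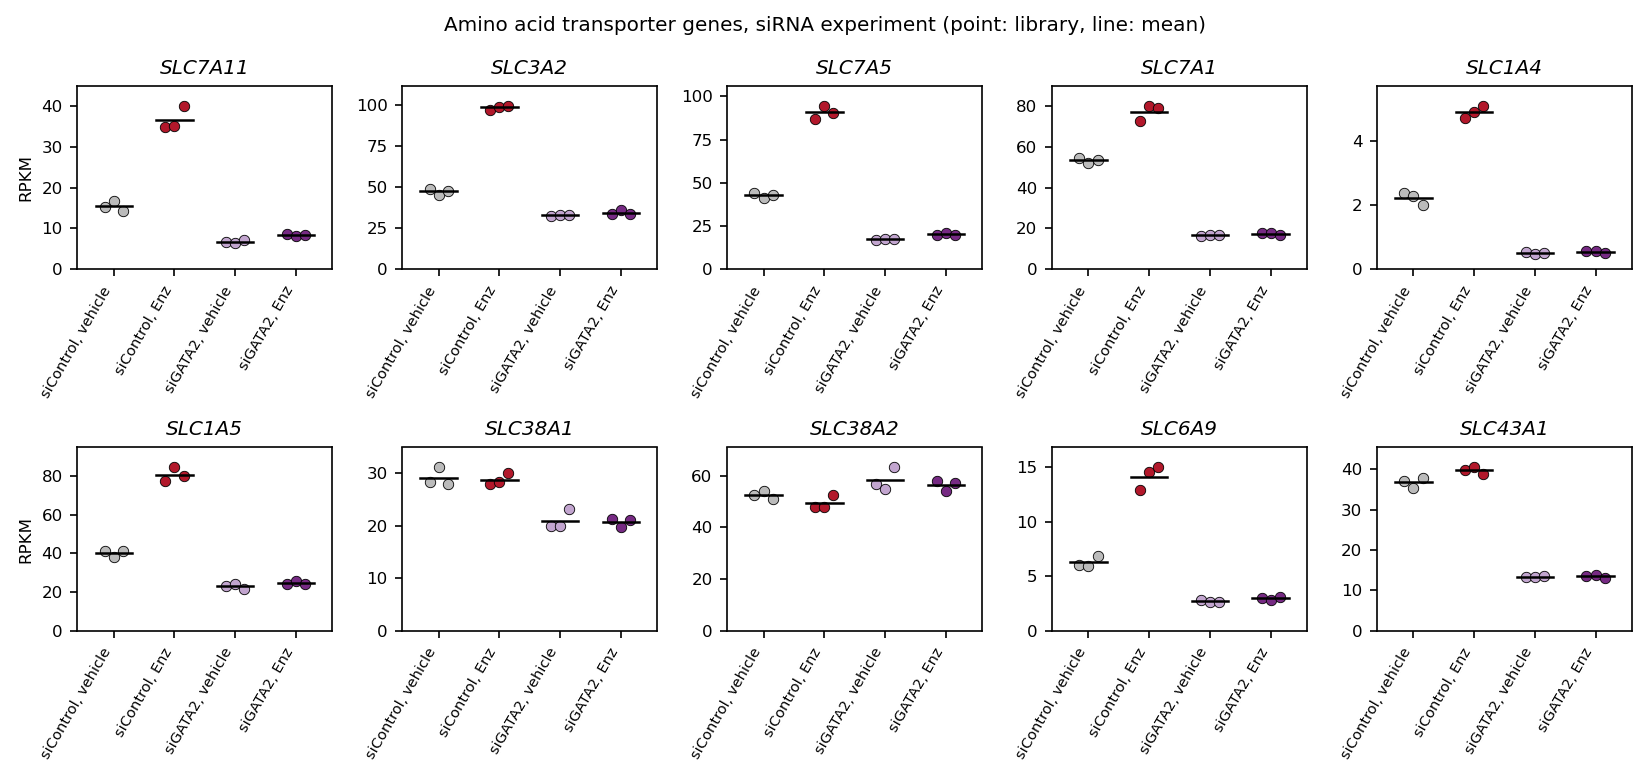
Level of each transporter gene in the siRNA experiment: each point is 1 library, each line a group mean, and the y axis is RPKM from 0. SLC7A11 goes from 14.4 to 16.7 RPKM in siControl with vehicle to 34.8 to 40.1 RPKM with enzalutamide, while the 6 siGATA2 libraries lie at 6.49 to 8.74 RPKM.

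SLC7A11 was at 15.1, 16.7 and 14.4 RPKM in siControl with vehicle and at 34.8, 35.1 and 40.1 RPKM in siControl with enzalutamide. In siGATA2 cells it was at 6.65, 6.49 and 7.12 RPKM with vehicle and at 8.74, 8.24 and 8.50 RPKM with enzalutamide. The 4 groups did not overlap, and all 6 siGATA2 libraries were below all 6 siControl libraries. On the log2(RPKM + 0.1) scale enzalutamide changed SLC7A11 by 1.24 ± 0.066 in siControl cells (limma, adjusted p = 2.94e-07) and by 0.33 ± 0.066 in siGATA2 cells (limma, adjusted p = 0.0775). The latter value was called once genes with a mean under 1 RPKM were left out (0.33), with adjusted p from 0.0234 to 0.257 over the settings. The difference between these effects, the interaction, was -0.92 with a 95% interval from -1.12 to -0.71 (limma, adjusted p = 8.47e-05). With siGATA2 the level of SLC7A11 was 44.2% of that in siControl with vehicle and 23.4% under enzalutamide.

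The heavy chain SLC3A2 was at 48.9, 45.4 and 47.8 RPKM in siControl with vehicle and at 97.1, 98.5 and 99.5 RPKM with enzalutamide. In siGATA2 cells it was at 32.6, 33.05 and 33.1 RPKM with vehicle and at 33.5, 35.9 and 33.6 RPKM with enzalutamide. Its level about doubled in the siControl libraries, while in siGATA2 cells the enzalutamide libraries lay just above those with vehicle, without overlap. The effect of enzalutamide was 1.05 ± 0.033 in siControl cells and 0.06 ± 0.033 in siGATA2 cells (limma, adjusted p = 1.17e-08 and 0.553), and the interaction was -0.99, interval -1.10 to -0.89 (limma, adjusted p = 1e-06).

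SLC7A5 was at 44.4, 41.0 and 43.2 RPKM in siControl with vehicle, at 86.9, 94.7 and 90.6 RPKM in siControl with enzalutamide, at 16.8, 17.6 and 17.7 RPKM in siGATA2 with vehicle and at 20.0, 20.8 and 19.6 RPKM in siGATA2 with enzalutamide. None of these groups overlapped. Enzalutamide changed it by 1.08 ± 0.04 in siControl cells (limma, adjusted p = 2.88e-08) and by 0.21 ± 0.04 in siGATA2 cells (limma, adjusted p = 0.0637), and the interaction was -0.87, interval -0.99 to -0.74 (limma, adjusted p = 5.39e-06). In siGATA2 cells SLC7A5 was called when genes with a mean under 1 RPKM were left out (0.21) or when libraries were rescaled by their median ratio (0.23), with adjusted p from 0.0267 to 0.198 over the settings. The number of transporters that rose in siGATA2 cells was then 2 and 1 in place of 0, and it was 1 without siControl enzalutamide replicate 3.

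**Figure D3:**
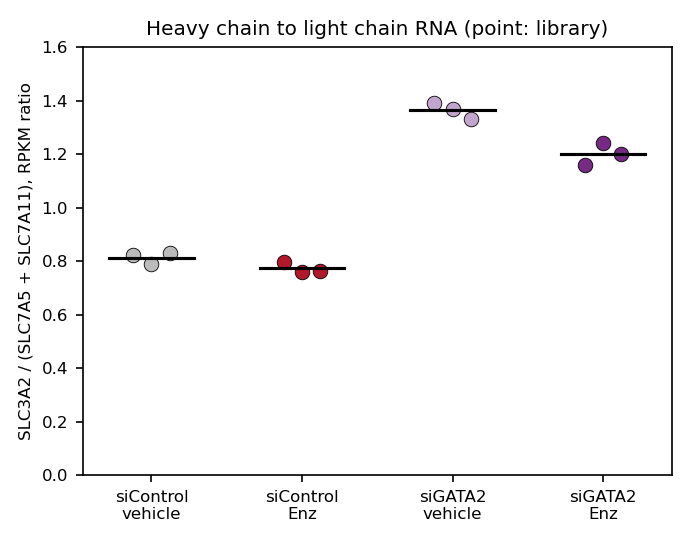
Ratio of the RPKM of SLC3A2 to the summed RPKM of SLC7A5 and SLC7A11, on a y axis from 0, with a point for each library and a line at each group mean. The 6 siControl libraries lie at 0.759 to 0.829 and the 6 siGATA2 libraries at 1.16 to 1.39.

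As heavy and light chains pair, their RNA was also set against each other. The ratio of SLC3A2 to the sum of SLC7A5 and SLC7A11, in RPKM, was 0.822, 0.787 and 0.829 in siControl with vehicle and 0.798, 0.759 and 0.762 with enzalutamide. In siGATA2 cells the ratio was 1.39, 1.37 and 1.33 with vehicle and 1.16, 1.24 and 1.2 with enzalutamide. The siControl groups overlapped, and every siGATA2 library was above every siControl library. The plot of this ratio by library shows the gap between the siRNAs. The ratio takes RPKM at face value and leaves out other light chains, and since the level of SLC7A5 differed between the experiments, as given below, whether heavy or light chain RNA is the larger part cannot be told.

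SLC7A1 was at 54.2, 52.0 and 53.7 RPKM in siControl with vehicle and at 72.6, 80.1 and 79.0 RPKM with enzalutamide. With siGATA2 it was at 16.4, 17.0 and 16.8 RPKM with vehicle and at 17.7, 17.9 and 16.8 RPKM with enzalutamide. The siGATA2 libraries of both treatments overlapped, at 31.5% of the siControl level with vehicle and 22.7% with enzalutamide. Enzalutamide changed SLC7A1 by 0.53 ± 0.039 in siControl cells (limma, adjusted p = 2.5e-06) and the interaction was -0.47, interval -0.59 to -0.35 (limma, adjusted p = 0.000195). In vehicle siGATA2 changed it by -1.67 ± 0.039 (limma, adjusted p = 2.44e-10).

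SLC1A4, the lowest of the 10, was at 2.37, 2.27 and 2.00 RPKM in siControl with vehicle, 4.71, 4.90 and 5.09 RPKM with enzalutamide, 0.534, 0.469 and 0.509 RPKM in siGATA2 with vehicle and 0.559, 0.579 and 0.514 RPKM with enzalutamide. SLC1A5 was at 41.1, 38.1 and 41.4 RPKM in siControl with vehicle, 77.5, 84.7 and 80.3 RPKM with enzalutamide, 23.1, 24.1 and 21.7 RPKM in siGATA2 with vehicle and 24.4, 25.9 and 24.2 RPKM with enzalutamide. In both genes the siControl libraries with enzalutamide were highest, those with vehicle next and all siGATA2 libraries lowest. The interaction was -1.01, interval -1.25 to -0.76, for SLC1A4 and -0.89, interval -1.05 to -0.74, for SLC1A5 (limma, adjusted p = 0.000131 and 1.62e-05). Relative to siControl, siGATA2 changed SLC1A4 by -1.94 ± 0.078 in vehicle and by -2.94 ± 0.078 under enzalutamide. With a pseudocount of 1 in place of 0.1 RPKM these became -1.09 and -1.93, since the level of SLC1A4 lies near the pseudocount, so its rank among the 10 depends on that choice.

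SLC6A9 was at 6.03, 5.94 and 6.88 RPKM in siControl with vehicle and at 12.9, 14.5 and 15 RPKM with enzalutamide. With siGATA2 it was at 2.80, 2.68 and 2.62 RPKM with vehicle and at 3.02, 2.85 and 3.13 RPKM with enzalutamide. The order of the groups was that of SLC1A5. Enzalutamide changed SLC6A9 by 1.16 ± 0.07 in siControl cells (limma, adjusted p = 6.53e-07) and by 0.15 ± 0.07 in siGATA2 cells (limma, adjusted p = 0.487), with an interaction of -1.01, interval -1.23 to -0.79 (limma, adjusted p = 6.47e-05).

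The SNAT genes behaved differently from these. SLC38A1 was at 28.4, 31.2 and 27.97 RPKM in siControl with vehicle, 28.01, 28.3 and 30.1 RPKM with enzalutamide, 20.0, 19.9 and 23.1 RPKM in siGATA2 with vehicle and 21.4, 19.7 and 21.1 RPKM with enzalutamide. SLC38A2 was at 52.5, 53.9 and 51.0 RPKM in siControl with vehicle, 47.9, 47.8 and 52.6 RPKM with enzalutamide, 56.8, 55.0 and 63.3 RPKM in siGATA2 with vehicle and 58.0, 54.2 and 57.2 RPKM with enzalutamide. Within each siRNA the treatments overlapped in both genes. The effect of enzalutamide in siControl cells was -0.02, interval -0.16 to 0.12, for SLC38A1, a sign that turns with rescaling by the median ratio (0.034), and -0.09, interval -0.21 to 0.035, for SLC38A2 (limma, adjusted p = 0.855 and 0.24). SLC38A1 was lower with siGATA2, by -0.48 ± 0.064 in vehicle and -0.47 ± 0.064 under enzalutamide (limma, adjusted p = 8e-05 and 8.35e-05). SLC38A2 was the single member that was higher with siGATA2, by 0.15 ± 0.055 and 0.19 ± 0.055 (limma, adjusted p = 0.0399 and 0.0125). Its call in vehicle ended with no filter on low values (0.15) and without siControl vehicle replicate 1 (0.15) or 3 (0.13), siGATA2 vehicle replicate 3 (0.090) or siGATA2 enzalutamide replicate 3 (0.15), with adjusted p from 0.0111 to 0.141 over the settings.

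SLC43A1 was at 37.2, 35.4 and 37.8 RPKM in siControl with vehicle and at 39.9, 40.5 and 38.9 RPKM with enzalutamide. With siGATA2 it was at 13.4, 13.3 and 13.6 RPKM with vehicle and at 13.6, 13.8 and 13.01 RPKM with enzalutamide. All siGATA2 libraries were below all siControl libraries, and in siControl cells those with enzalutamide were above those with vehicle. The effect of enzalutamide in siControl cells was 0.11 ± 0.031 (limma, adjusted p = 0.0134), and it was not called without siControl enzalutamide replicate 2 (0.099; adjusted p from 0.00113 to 0.052 over the settings). The change with siGATA2 was -1.45 ± 0.031 in vehicle and -1.56 ± 0.031 under enzalutamide (limma, adjusted p = 1.46e-10 and 1.06e-10). For SLC43A1 the interaction was -0.11, interval -0.20 to -0.0098 (limma, adjusted p = 0.102). It was called with rescaling by the median ratio (-0.14), with adjusted p from 0.0305 to 0.213 over the settings.

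Over the group, siGATA2 lowered 9 of 10 transporters and raised 1 in vehicle, where 31.4% of all genes fell and 24.2% rose. Under enzalutamide the counts were again 9 and 1, where 28.1% of all genes fell and 26.3% rose. The median log2 fold change of the 10 was -1.18 in vehicle and -1.9 under enzalutamide, beside -0.027 and -0.0026 over all genes. The interaction was negative for 7 of 10 and positive for 0, against 10.8% and 15% of all genes (limma), with 8 negative and 0 positive at an unadjusted p below 0.05. Those 7 were SLC7A11, SLC3A2, SLC7A5, SLC7A1, SLC1A4, SLC1A5 and SLC6A9. For SLC38A1 and SLC38A2 the interaction was 0.0022, interval -0.20 to 0.20, and 0.043, interval -0.13 to 0.22, and that of SLC38A1 turned negative with rescaling by the median ratio (-0.033). That the interval of SLC38A1 spans 0 does not show that the effects were equal.

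**Figure D4:**
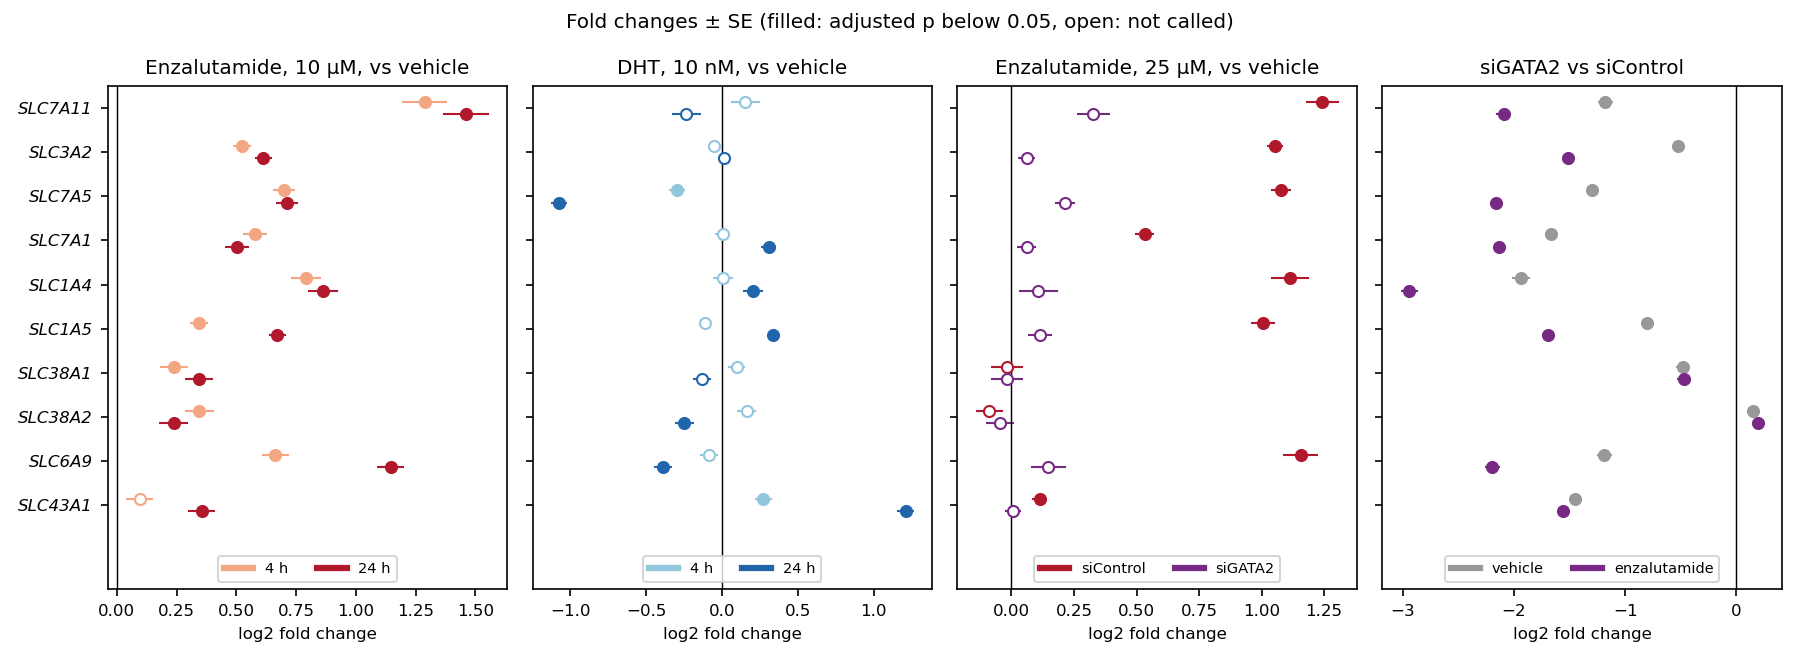
Log2 fold change (x axis) of each transporter gene (y axis) with its SE, for enzalutamide and DHT against vehicle in the ligand experiment, enzalutamide against vehicle by siRNA, and siGATA2 against siControl by treatment; filled points have an adjusted p below 0.05. In the siRNA panels SLC7A11 moves by 1.24 with enzalutamide in siControl cells and by 0.33, an open point, in siGATA2 cells.

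Rescaling the siRNA libraries by their median ratio to the geometric mean shifted the split of calls over all genes. For enzalutamide in siControl cells it went from 3612 risers and 4970 fallers to 4564 and 4090, and in siGATA2 cells from 45 and 39 to 55 and 31. For siGATA2 in vehicle it went from 4928 and 6394 to 5584 and 5713, and for the interaction from 3055 positive and 2209 negative to 2589 and 2714. The 8 transporters called in siControl cells were the same number under both scalings.

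Other genes of amino acid transport and of its known regulators gave a background for these values. Of all genes, enzalutamide raised 17.7% and lowered 24.4% in siControl cells, and 0.221% and 0.191% in siGATA2 cells. In the ligand experiment it raised 6.94% and lowered 6.68% by 4 h, and 16.4% and 17% by 24 h. DHT raised 26.9% and lowered 23.2% by 24 h. With siGATA2 in vehicle 24.2% rose and 31.4% fell, and under enzalutamide 26.3% and 28.1%. The interaction was positive for 15% and negative for 10.8%. These shares stand beside every list that follows. Of 41 other genes listed as amino acid transporters, the lysosomal SLC38A9 among them, 33 could be tested in the siRNA experiment and 21 in the ligand experiment. The list includes SLC43A3, which is known as a carrier of purine nucleobases and not of amino acids. SLC43A3 was among the genes that rose with enzalutamide in siControl cells (log2 change 0.68). In siControl cells enzalutamide raised 3 and lowered 11 of the 33, in siGATA2 cells 0 and 0 (limma; 1 higher and 1 lower at an unadjusted p below 0.05), and their interaction was positive for 5 and negative for 2. Of the 21 in the ligand experiment, enzalutamide raised 1 and lowered 1 by 4 h, and raised 2 and lowered 2 by 24 h, while DHT raised 7 and lowered 8 by 24 h. SLC7A6, a partner light chain of SLC3A2, went from 9.76 to 7.09 RPKM with enzalutamide in siControl cells, a log2 change of -0.46. The cationic carrier SLC7A2 went from 10.2 to 12.4 RPKM and the light chain SLC7A8 from 24.7 to 30.2 RPKM, while SLC38A9 went from 5.71 to 4.54 RPKM. With siGATA2 in vehicle 1 of the 33 rose and 17 fell, and under enzalutamide 4 rose and 11 fell. No test was made of the difference between this list and the 10.

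A list of 20 genes of the amino acid response under ATF4 was looked at next. Of the 20, 20 rose and 0 fell with enzalutamide in siControl cells (limma; 20 and 0 also at an unadjusted p below 0.05), 1 rose and 0 fell in siGATA2 cells (limma; 5 and 0 unadjusted), and the interaction was negative for 20. The median log2 fold change of the list was 1.19 in siControl cells and 0.059 in siGATA2 cells. With siGATA2 in vehicle 5 rose and 14 fell, with a median of -0.48, and under enzalutamide 1 rose and 18 fell. In the ligand experiment 18 rose at 4 h and 20 at 24 h of enzalutamide, and 4 rose and 9 fell at 24 h of DHT. The transcript of ATF4 went from 124 to 286 RPKM with enzalutamide in siControl cells and from 91.7 to 101 RPKM in siGATA2 cells. Asparagine synthetase (ASNS) went from 58.1 to 162 RPKM and from 26.3 to 33.2 RPKM, the serine synthesis enzyme PSAT1 from 97.0 to 203 RPKM and from 64.6 to 70.1 RPKM, and DDIT3, which encodes CHOP, from 18.5 to 89.2 RPKM and from 28.1 to 32.1 RPKM. The list was chosen with earlier results of these data known, so its direction is no independent support for that of the transporters.

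NRF2 is a factor that also drives SLC7A11, and 12 genes were listed, its known targets and NFE2L2, which encodes NRF2 itself. NFE2L2 was not called with enzalutamide in siControl cells (0.10) and was among the risers with DHT at 24 h (0.18). With enzalutamide in siControl cells 10 of 12 rose and 0 fell (limma, the same counts unadjusted), in siGATA2 cells 1 rose and 0 fell (limma, the same counts unadjusted), and the interaction was negative for 10 and positive for 0. In the ligand experiment 0 of 12 rose and 0 fell at 4 h of enzalutamide (edgeR; 4 higher and 0 lower at an unadjusted p below 0.05), 7 rose and 1 fell at 24 h, and at 24 h of DHT 4 rose and 1 fell. SRXN1 went from 48.1 to 76.2 RPKM with enzalutamide in siControl cells, NQO1 from 188 to 249 RPKM, PIR from 35.5 to 44.7 RPKM and the thioredoxin reductase TXNRD1 from 165 to 205 RPKM.

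Of 12 genes listed around the route from cystine to glutathione, 6 rose and 2 fell with enzalutamide in siControl cells (limma). In siGATA2 cells the counts were 0 and 0, with 1 higher and 0 lower at an unadjusted p below 0.05. The interaction was negative for 6 and positive for 2. CD44 and SLC33A1 are on this list although neither is a step of the route. SLC33A1 was among the positive interactions (0.10). Of the 11 tested in the ligand experiment, enzalutamide raised 2 by 4 h, and raised 6 and lowered 3 by 24 h, and DHT raised 6 and lowered 1 by 24 h. CHAC1, which degrades glutathione, went from 4.97 to 37.1 RPKM in siControl cells and from 1.41 to 1.80 RPKM in siGATA2 cells. CTH, which makes cysteine from cystathionine, went from 6.63 to 16.2 RPKM and from 3.03 to 3.24 RPKM. Both are also among the ATF4 genes. GCLM, a subunit of the first enzyme of glutathione synthesis and also on the NRF2 list, went from 11.9 to 17.7 RPKM in siControl cells, and the lipid peroxidase GPX4 from 169 to 199 RPKM.

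Of the genes that report amino acids to the kinase complex mTORC1, 12 of 14 were tested in the siRNA experiment and 13 in the ligand experiment. With enzalutamide in siControl cells 7 rose and 4 fell, in siGATA2 cells 0 and 0 (limma; 1 higher and 3 lower at an unadjusted p below 0.05), and the interaction was negative for 6 and positive for 2. In the ligand experiment enzalutamide raised 4 by 4 h, and raised 5 and lowered 2 by 24 h. DHT raised 0 and lowered 8 by 24 h (edgeR, the same counts unadjusted). Of all genes, DHT raised 26.9% and lowered 23.2% by then. The leucine sensor SESN2 went from 11.1 to 21.2 RPKM with enzalutamide in siControl cells and from 11.9 to 12 RPKM in siGATA2 cells. In siControl cells its relative SESN1 went from 15.9 to 19.7 RPKM and the GTPase RRAGD from 4 to 5.51 RPKM, while SESN3 changed by -0.52 on the log2 scale. SESN2 is also among the ATF4 genes, and SLC38A9 is on this list and among the other transporters, so the lists are not separate.

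**Figure D5:**
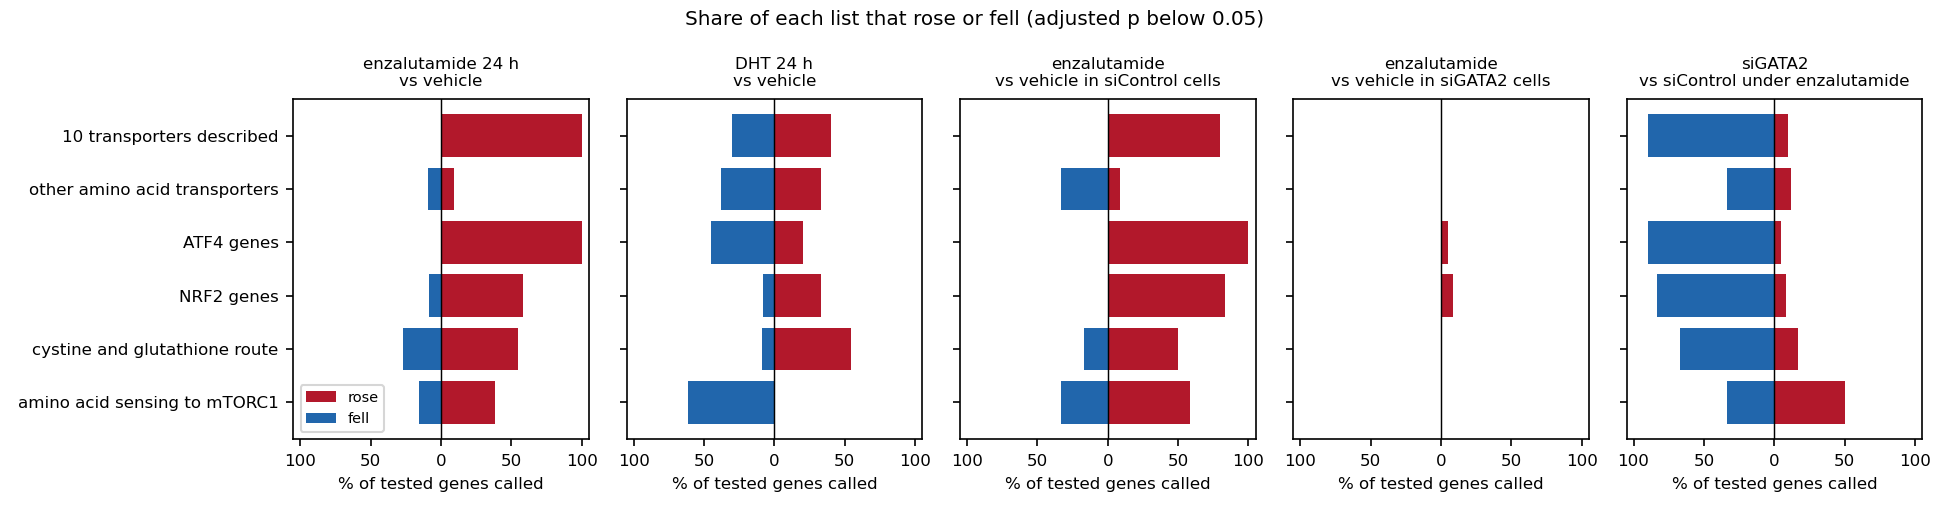
Share of the tested genes of each list (y axis) that rose (right) or fell (left), in percent (x axis), in 5 comparisons. With enzalutamide in siControl cells 20 of 20 ATF4 genes and 8 of the 10 transporters rose, and in siGATA2 cells 1 of 20 and 0 of 10.

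Across the 12 siRNA libraries, the genes whose log2 level was most like that of SLC7A11, of 11999 with a mean of at least 1 RPKM, were ASNS and MIA3 (Pearson correlation 0.997 for each), YARS (0.996), CTDSPL (0.995) and RSL24D1 (0.995). Across the 10 ligand libraries, of 12352 genes, with a mean log2 CPM of at least 1, they were BCL11B (0.996), BICRAL (0.995), GADD45A (0.991), ZBTB38 (0.99) and PSAT1 (0.989). The libraries of a group share their treatment, so these values describe the pattern over groups and carry no test. Among the members, SLC7A5 and SLC6A9 came closest to SLC7A11 in the siRNA libraries (0.991 each), followed by SLC1A5 (0.988) and SLC3A2 (0.981), and SLC38A2 ran against it (-0.79). In the ligand libraries SLC6A9 (0.96) and SLC3A2 (0.957) came closest, and SLC43A1 ran against it (-0.419).

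The promoters of the 10 genes were searched, on both strands, for the core of an element (CARE, TGATGNAA, N being any base). ATF4 binds this element with a partner. The search was chosen because enzalutamide raised most of the 10 genes and all of the ATF4 list in siControl cells. RefSeq promoters of GRCh38.p14, each with 250 bases before the start site and 50 bases from it on, were given for 9 of the 10 genes, 16 promoters in all; SLC7A11 had no entry. The letters were in 5 of the 16, each of a different gene, and in 3.62% of 35116 promoters of all genes. The 5 windows of 30 bases are shown, on the strand of the gene, because they hold these matches, with the matched bases in capitals.
SLC3A2: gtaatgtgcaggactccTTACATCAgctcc
SLC7A1: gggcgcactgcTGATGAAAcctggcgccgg
SLC1A4: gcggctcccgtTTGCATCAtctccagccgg
SLC1A5: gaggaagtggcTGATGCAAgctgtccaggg
SLC38A1: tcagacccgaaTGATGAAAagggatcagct

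The window of SLC3A2 is at chr11:62881719-62881748 on the plus strand and that of SLC1A4 at chr2:64989381-64989410 on the plus strand, both with the motif on the opposite strand to the gene. Those of SLC7A1 at chr13:29595663-29595692, SLC1A5 at chr19:46784893-46784922 and SLC38A1 at chr12:46266502-46266531 are on the minus strand, as are the genes. With the start site of that promoter counted as 0, the match begins at 37 in SLC3A2, 7 in SLC7A1, -7 in SLC1A4, -97 in SLC1A5 and -4 in SLC38A1. In SLC7A1 this start site is the outer end of the gene in GENCODE, and in the others it lies inside the gene. Of these 5 genes, SLC38A1 was not called with enzalutamide in siControl cells. The core of the antioxidant response element (TGACNNNGC, both strands), read by NRF2, was in 4 of the 16 promoters, those of SLC3A2, SLC7A5, SLC7A1 and SLC1A5, and in 13.3% of all promoters. In SLC1A5 it lay in a different promoter from the CARE match. A match describes letters in a window and does not show that a factor binds there.

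The level of SLC7A5 differed between the experiments more than that of nearly all genes. In vehicle it had 0.545 CPM per RPKM, and divided by its longest annotated transcript of 4.54 kb this is a ratio of 0.12, where the median over 11464 genes was 0.986 and 0.48% of genes lay lower. SLC43A1 had a ratio of 0.366, with 7.4% of genes lower, and the other 8 transporters had ratios of 0.537 to 1.83. The cause was not tested. Levels of SLC7A5 and SLC43A1 in the 2 experiments should not be set side by side, while differences between groups within an experiment use the same unit.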

How the data were processed

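Polyadenylated RNA of LNCaP cells was sequenced in 10 ligand libraries, as analysed here, and 12 siRNA libraries. The submitters' processing notes name TopHat2 2.0, Partek and the hg19 build. For the ligand groups the authors deposited an estimated count per gene, not always whole. For the siRNA groups the authors deposited RPKM, reads scaled to transcript length and mapped reads, under names that call them counts. The strand setting of the counting is not stated.

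Estimated counts were rounded, filtered by expression, scaled by the trimmed mean of M values and tested with edgeR 4.0.16 (quasi-likelihood, all 5 groups in 1 fit) in R 4.3.3. RPKM above 0 in at least 3 libraries were tested as log2(RPKM + 0.1) with limma 3.58.1 (trend, all 4 groups in 1 fit), so the fold changes of low genes are understated. Calls needed a Benjamini-Hochberg adjusted p below 0.05 over all genes tested. Both fits were also run on simulated data, and no result given here rests on that. The 4 vehicle columns were reduced to 2 libraries.

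Named were the 10 members, GATA2, KLK3, TMPRSS2 and FKBP5 as checks, the 5 genes most like SLC7A11 per experiment, and the 4 genes with the smallest p for enzalutamide in siControl cells from each list: other amino acid transporters, ATF4 genes, NRF2 genes, the cystine and glutathione route, and amino acid sensing to mTORC1. Members and lists were chosen with earlier results of these data known. Alternatives were DESeq2 1.42.0, other scaling, filters and pseudocount, separate vehicle columns, a replicate block and leaving out each library.

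Same-numbered libraries of siControl and siGATA2 under enzalutamide had weak positive correlations (0.113, 0.241 and 0.148), and their numbers were taken as possible pairs from the data alone. No other groups met this mark, though single values of 0.203 and 0.28 occurred between the siGATA2 groups. Whether the libraries were paired cannot be told. Coordinates and sequences are GENCODE and RefSeq on GRCh38, matched by symbol, and none was used with positions of the other build.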

Additional observations from a re-analysis of the deposited data

Results flagged for a closer look

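The effect of enzalutamide differed between siControl and siGATA2 cells, by the test of the interaction on the log2 scale (limma), for 7 of the 10 transporters: SLC7A11 (-0.92), SLC3A2 (-0.99), SLC7A5 (-0.87), SLC7A1 (-0.47), SLC1A4 (-1.01), SLC1A5 (-0.89) and SLC6A9 (-1.01). Each value is the effect in siGATA2 cells less that in siControl cells.

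The effect of enzalutamide against vehicle differed between 24 and 4 h (edgeR) for SLC1A5 (0.33), SLC6A9 (0.48) and SLC43A1 (0.26), each larger at 24 h. That of DHT differed between these times for 9 of 10: larger at 24 h for SLC7A1 (0.30), SLC1A4 (0.20), SLC1A5 (0.45) and SLC43A1 (0.94), and lower at 24 h for SLC7A11 (-0.39), SLC7A5 (-0.78), SLC38A1 (-0.23), SLC38A2 (-0.41) and SLC6A9 (-0.30). The vehicle libraries are the same at both times, so these are differences between the treated groups. The libraries of 4 and 24 h share no column-name prefix under either ligand, so time and prefix cannot be told apart here.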

How the results depend on the processing

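Of 92 transporter values called, 83 kept the call under every alternative tried and 0 changed sign; of 38 not called, 14 were called under some alternative. Values that changed sign were all uncalled. With all vehicle columns as separate libraries they were SLC7A1 (-0.00579) and SLC1A4 (-0.012) with DHT at 4 h and SLC3A2 (-0.017) with DHT at 24 h. For 24 against 4 h of enzalutamide SLC7A5 was -0.00108 with DESeq2 and -0.000693 with RLE factors. With rescaling by the median ratio SLC38A1 was 0.034 in siControl cells, 0.00094 in siGATA2 cells and -0.033 for the interaction.

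With each library left out in turn, these ranges included both signs: DHT 4 h, SLC7A1 -0.020 to 0.039 and SLC1A4 -0.058 to 0.095; DHT 24 h, SLC3A2 -0.027 to 0.055; 24 against 4 h of enzalutamide, SLC7A5 -0.0012 to 0.020, SLC38A1 -0.0039 to 0.21 and SLC7A1 -0.17 to 0.018. Enzalutamide in siControl cells gave SLC38A1 -0.050 to 0.030. In siGATA2 cells it gave SLC38A1 -0.054 to 0.055, SLC38A2 -0.087 to 0.015 and SLC43A1 -0.014 to 0.030. The interaction of SLC38A1 was -0.046 to 0.074.

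Counts that moved by over 1.5 times were as follows; beyond the changed filters and libraries themselves, the cause was not tested. Risers with DHT at 4 h numbered 3 with no filter on low counts and 0 to 2 with a library left out. Fallers with DHT at 24 h numbered 5 with no filter, 5 with separate vehicle columns and 2 to 5 with a library left out. For 24 against 4 h of enzalutamide there was 1 faller with no filter, 0 to 2 with a library left out, and 3 to 5 risers. For enzalutamide against DHT at 4 h there was 1 gene lower with DESeq2, 1 with RLE factors, 1 with no filter, 1 with separate vehicle columns and 0 to 1 with a library left out. Risers with enzalutamide in siGATA2 cells numbered 2 with a mean of at least 1 RPKM, 1 with the median ratio and 0 to 1 with a library left out. With siGATA2 in vehicle the riser was lost with no filter (0), and left-out libraries gave 0 to 1.

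The replicate block changed no call of a transporter: 8 rose with enzalutamide in siControl cells and 0 in siGATA2 cells, and 7 interactions were negative. The block was set on all libraries of each experiment, while only the enzalutamide groups of the siRNA experiment met the mark for pairing. Over all genes it lowered the calls in siGATA2 cells from 45 risers and 39 fallers to 14 and 15. Correlations of same-numbered libraries ran from -0.103 (enzalutamide 4 h and DHT 24 h, which are not compared) to 0.0633 in the ligand and from -0.342 to 0.28 in the siRNA experiment. Where a left-out library leaves 1 in a group, that library is assumed to vary like the others. With 2 libraries per ligand group small changes are not resolved.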
